A study of Rattus norvegicus with 4 samples.

Results

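The 9 acute phase genes described here are Fga, Fgb and Fgg, which encode the chains of fibrinogen, Hp (haptoglobin), Orm1 (orosomucoid), A2m (alpha-2-macroglobulin), Lbp (lipopolysaccharide binding protein), Hamp (hepcidin) and Lcn2 (lipocalin-2). They were taken by symbol from 22118 symbols, and each symbol is 1 feature of the matrices. Levels were read in hepatocyte barcodes, meaning barcodes with a UMI (unique molecular identifier) of at least 3 of Serpinc1, Gc, Ttr and Apoc3 and none of Ptprc. That rule took 11832 of 37529 barcodes: 2565 in NEVLPcty, 4288 in NEVLP2, 3292 in CS and 1687 in naive.

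The libraries are droplet single-cell RNA libraries from livers of Lewis rats, 1 library per group. NEVLPcty is a liver perfused outside the body for 4 h at 37 °C with IL-10 and TGF-β, NEVLP2 a liver perfused likewise without the cytokines, CS a liver held for 4 h at 4 °C, and naive the control liver that was not preserved. The series description is the source for reading CS as cold storage and NEVLPcty as the cytokine arm, and the digit in NEVLP2 is not explained in the sources used here. The perfusate was William's E medium with leukoreduced Lewis red cells, to which 1.25 mg of hydrocortisone and 1 mg of insulin, heparin, papaverine, human albumin, antibiotics, pyruvate and glutamine had been added. Age, sex and the number of animals behind a library are not given in the sources used here, nor is the way cells were isolated. With 1 library per group there is no replicate check and no test, and a difference between libraries cannot be told apart from a difference between animals or preparations. Intervals are exact 95% limits that cover counting error only.

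Acute phase proteins are plasma proteins that the liver makes more or less of after injury or infection. IL-6 and related cytokines act through gp130, JAK kinases and STAT3, whereas IL-1 and TNF act through NF-κB, and C/EBPβ and C/EBPδ join both routes at the promoters of the secreted proteins. Glucocorticoid strengthens the response. Hepcidin, which lowers iron export by binding ferroportin, is driven by BMP ligands of liver endothelium through SMAD proteins as well as by IL-6 through STAT3. Lipocalin-2 binds bacterial siderophores and is made by injured hepatocytes and epithelia, and it is also a stored granule protein of neutrophils. In the rat, alpha-2-macroglobulin is one of the strongest responders of the acute phase.

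Upstream sequence is shown for the members on which the results turn: a pair of fibrinogen chains, hepcidin and lipocalin-2. RefSeq promoter entries (GRCr8) were found for 6 of the 9 members, Fga, Fgb, Fgg, Orm1, Hamp and Lcn2, and 250 bases before the annotated start were searched on both strands. The letters searched were TTCNNNGAA (STAT), CTGGGAA (type II IL-6 element), TTNNGNAA (C/EBP), GGGA and CC with any 4 bases between them (NF-κB) and GGCGCC (BMP element), and matches are in capitals. Of 33469 rat promoters, 7.67% hold the STAT letters, 9.56% the type II element, 37.2% the C/EBP letters, 16.4% the NF-κB letters and 8.70% the BMP element. The Lcn2 stretch stops after 179 bases, where the annotated gene span begins, and the sequences read 5′ to 3′ on the strand of the gene.
Fga, chr2:170671919-170672168 (+ strand): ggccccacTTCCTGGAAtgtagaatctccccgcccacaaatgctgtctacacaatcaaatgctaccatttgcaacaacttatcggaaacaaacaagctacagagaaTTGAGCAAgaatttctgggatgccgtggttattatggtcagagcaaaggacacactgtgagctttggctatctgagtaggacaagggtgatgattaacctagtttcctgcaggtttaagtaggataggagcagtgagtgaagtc
Fgb, chr2:170700876-170701125 (- strand): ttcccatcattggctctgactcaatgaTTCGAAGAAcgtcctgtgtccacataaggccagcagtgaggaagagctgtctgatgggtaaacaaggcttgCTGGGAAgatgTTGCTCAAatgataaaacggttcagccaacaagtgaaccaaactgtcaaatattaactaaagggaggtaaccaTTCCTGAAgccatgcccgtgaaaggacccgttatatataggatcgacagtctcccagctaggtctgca
Hamp, chr1:95300272-95300521 (- strand): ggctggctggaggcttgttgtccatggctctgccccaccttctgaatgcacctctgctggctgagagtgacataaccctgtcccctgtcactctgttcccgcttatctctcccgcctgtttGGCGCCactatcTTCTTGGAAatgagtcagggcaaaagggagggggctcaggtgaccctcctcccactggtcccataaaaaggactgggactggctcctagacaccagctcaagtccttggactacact
Lcn2, chr3:36081852-36082030 (- strand): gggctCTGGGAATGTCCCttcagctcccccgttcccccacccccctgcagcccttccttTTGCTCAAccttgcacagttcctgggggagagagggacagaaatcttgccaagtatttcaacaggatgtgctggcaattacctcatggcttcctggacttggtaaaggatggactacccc

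In Fga 1 STAT and 1 C/EBP match were found, and in Fgb 1 STAT, 1 type II and 2 C/EBP matches. Fgg, not printed, holds 2 type II elements. In Hamp the STAT and BMP letters lie within the same short stretch, with 1 match each. Lcn2 holds 2 NF-κB matches that overlap each other and its single type II element, and 1 C/EBP match. Orm1, also not printed, holds 2 C/EBP matches and 1 NF-κB match. These matches describe the letters of the windows and are not evidence of binding.

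The label was checked against 10 further hepatocyte genes, among them Alb, Apoa1, Apoa2, Apob, Apoh, Fabp1, Cps1, Hpd and Tat. In 3071 of the 11832 rule barcodes these check markers made up under 2% of UMIs: 986 in NEVLPcty (38.4% of that library's rule barcodes), 953 in NEVLP2 (22.2%), 1043 in CS (31.7%) and 89 in naive (5.28%). Most of these marker-poor barcodes carried endothelial markers, with 930 endothelial-like barcodes in NEVLPcty, 630 in NEVLP2 and 942 in CS, but 3 in naive, where the median was 100 genes and 96.7% mitochondrial UMIs. The hepatocyte label therefore does not hold for the marker-poor barcodes. The other 8761 are called marker-rich hepatocyte barcodes. They were chosen by these same check markers, which are thus no separate check of them. Every level below is given in the marker-rich hepatocyte barcodes (1579 in NEVLPcty, 3335 in NEVLP2, 2249 in CS and 1598 in naive), with the value over all rule barcodes beside it where they differ in direction or call.

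**Figure D1:**
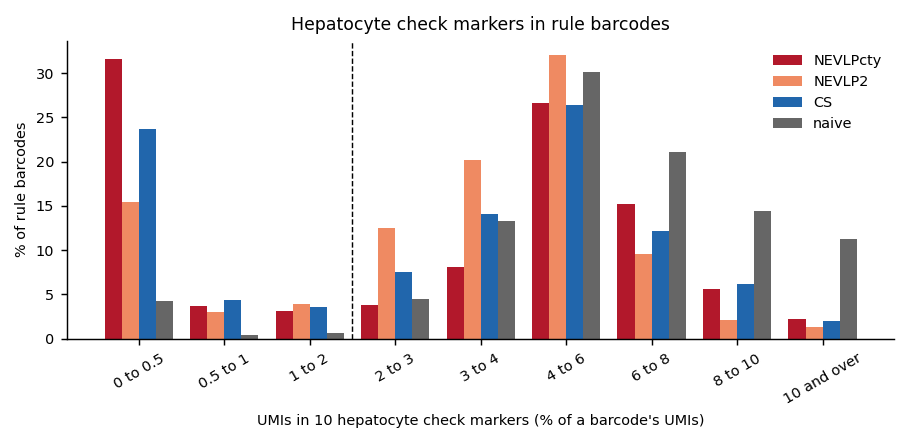
Share of rule barcodes (y axis, %) by the share of a barcode's UMIs in the 10 hepatocyte check markers (x axis, %, bins of unequal width), with the 4 libraries as bars and the 2% limit dashed. The barcodes form separate low and high groups, and the lowest bin holds 31.6% of rule barcodes in NEVLPcty, 15.4% in NEVLP2, 23.7% in CS and 4.21% in naive.

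Marker-rich barcodes had a median of 1824 UMIs in NEVLPcty, 1454 in NEVLP2, 1432 in CS and 1870.5 in naive, and summed to 4437362, 6836294, 4209875 and 4286831 UMIs in the same order. Whole libraries held 72271060, 65893218, 67431270 and 25609611 UMIs. Pairs of libraries shared 11 to 35 cell barcode sequences, of which 0 to 4 were hepatocyte barcodes in both. The check markers stood at 56315 CPM (counts scaled to the sum of UMIs) in NEVLPcty, 48206 in NEVLP2, 56482 in CS and 70492 in naive. Markers of other cells were still read in them: the 7 endothelial markers summed to 619 CPM in NEVLPcty, 272 in NEVLP2, 839 in CS and 36.9 in naive, and the 7 Kupffer cell markers to 131, 583, 745 and 50.4 CPM in that order. The part of these other cells in the differences below was not tested. Just above the limit, at 2 to 3% check markers, Hp was 3649 CPM in NEVLPcty, 7412 in NEVLP2, 3906 in CS and 3535 in naive, and just below it, at 1 to 2%, 1586, 4169, 2099 and 3428 CPM in the same order. Any pair of libraries shared 11 to 35 cell barcodes, of which at most 4 were rule barcodes in both.

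Among the members, Lcn2 differed most between libraries, and Hamp was the one member at its highest in the cytokine-perfused library. The fibrinogen chains, Hp, Orm1 and Lbp were lower in NEVLPcty than in NEVLP2, CS and naive, with the exception that Lbp differed little between NEVLPcty and CS. A2m was at the limit of detection everywhere. The 5 comparisons share libraries, so a low or high library enters several of them, and each comparison's own values are given side by side.

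**Figure D2:**
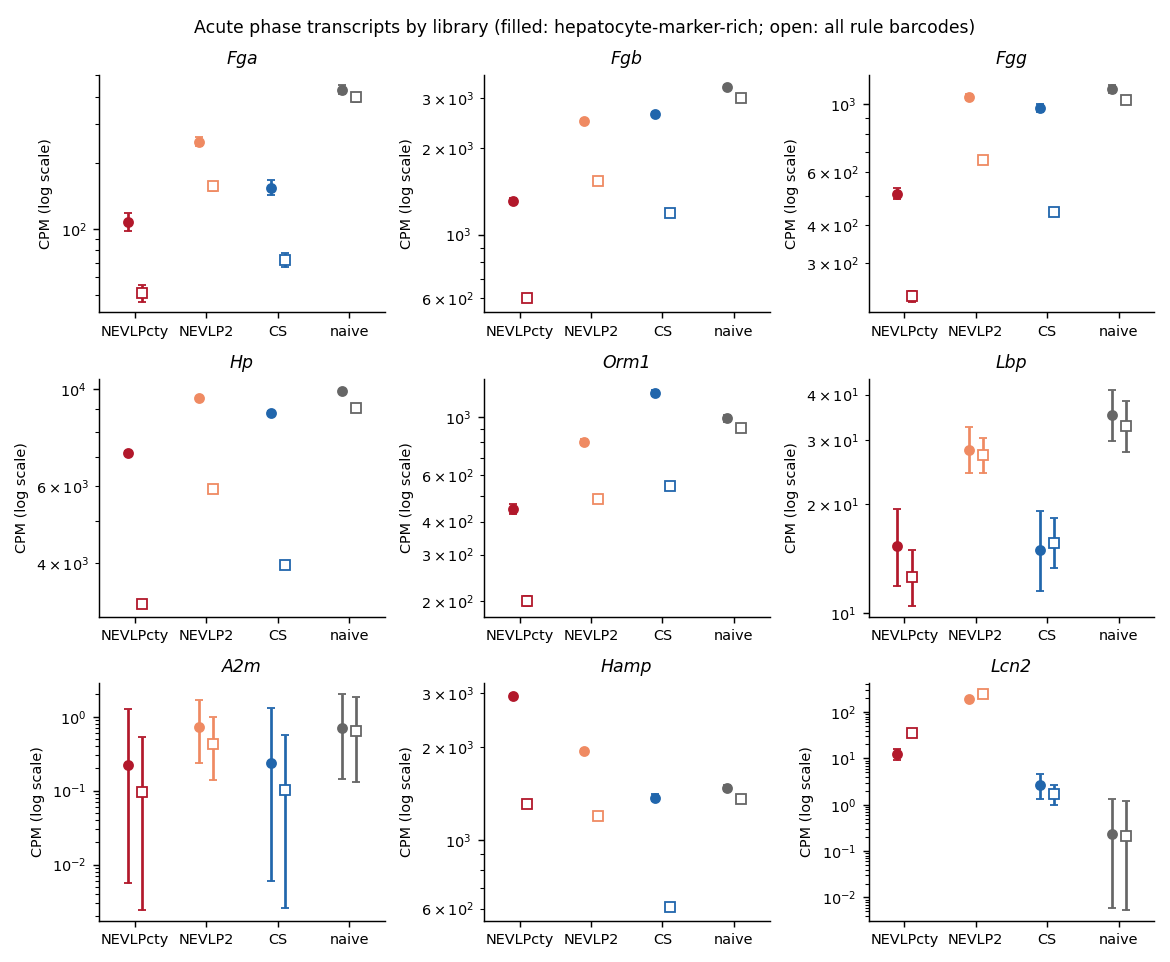
Level of each of the 9 genes by library in CPM (log scale on the y axis; scales differ between panels), with filled circles for marker-rich hepatocyte barcodes, open squares for all rule barcodes and bars for exact 95% Poisson intervals. NEVLPcty has the lowest marker-rich value for Fga, Fgb, Fgg, Hp and Orm1 and the highest for Hamp, while Lcn2 spans from 191 CPM in NEVLP2 to 0.233 CPM in naive.

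Fibrinogen, the clotting precursor and itself an acute phase protein, is assembled from equal numbers of its α, β and γ chains, encoded by Fga, Fgb and Fgg. Fgb measured 1311 CPM in NEVLPcty, 2497 in NEVLP2, 2641 in CS and 3267 in naive. Fgg followed the same outline, at 508 CPM in NEVLPcty, 1061 in NEVLP2, 972 in CS and 1124 in naive. NEVLPcty stood apart as the low library for both, and the other 3 libraries lay within 1.31-fold of each other for Fgb and 1.16-fold for Fgg. Fga was sparser and spread more, with 107 CPM in NEVLPcty, 250 in NEVLP2, 154 in CS and 430 in naive, so that naive was high and both NEVLPcty and CS were low. The 3 chains were therefore not in constant proportion: per 100 UMIs of Fgb there were 8.18 of Fga in NEVLPcty (95% interval 7.44 to 8.99), 10.0 in NEVLP2 (9.51 to 10.5), 5.84 in CS (5.39 to 6.32) and 13.2 in naive (12.5 to 13.8). Fgg per 100 Fgb moved less, at 38.7 in NEVLPcty, 42.5 in NEVLP2, 36.8 in CS and 34.4 in naive.

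A single NEVLP2 barcode bears on the values of that library. With 84108 UMIs, 4960 genes and 12.1% mitochondrial UMIs it lay within the quality limits, and it was the top barcode of its library for every member except A2m. It held 1788 of the 17067 Fgb UMIs, 994 of the 7250 Fgg UMIs (13.7%), 203 of the 1706 Fga UMIs (11.9%) and 191 of the 1308 Lcn2 UMIs (14.6%). Without it, NEVLP2 had 2263 CPM of Fgb, 927 of Fgg, 223 of Fga and 165 of Lcn2. The Fgg log2 ratio of NEVLPcty over NEVLP2 was then -0.87 instead of -1.06, inside 2-fold, while Fga at -1.05 and Lcn2 at -3.76 stayed past it.

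Haptoglobin, which captures free haemoglobin, was detected in nearly every marker-rich barcode, with a share of 98.6% in NEVLPcty, 99.6% in NEVLP2, 94.2% in CS and 98.4% in naive. After thinning each barcode to 1000 UMIs the shares were 98.2, 99.7, 94.7 and 97.5%, against 5.48, 13.8, 7.29 and 4.16% in T, NK and B cell barcodes, which should lack it. Its level was 7154 CPM in NEVLPcty, 9556 in NEVLP2, 8809 in CS and 9895 in naive, the narrowest spread of any member with 20 or more counts in each library. NEVLPcty was 1.34-fold below NEVLP2 (1.32 to 1.35) and 1.38-fold below naive (1.36 to 1.40). Orosomucoid, an abundant plasma glycoprotein that binds basic drugs and steroids, stood at 448 CPM in NEVLPcty, 801 in NEVLP2, 1235 in CS and 988 in naive. CS held the highest Orm1 level in the marker-rich barcodes, 1.25-fold above naive (1.20 to 1.30), but over all rule barcodes the order was reversed, with 546 CPM in CS against 904 in naive, where the endothelial markers summed to 7594 CPM in CS against 102 in naive.

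Lbp, which hands bacterial lipopolysaccharide to CD14, was sparse. It had 68 counts in NEVLPcty, 193 in NEVLP2, 63 in CS and 151 in naive, which is 15.3, 28.2, 15.0 and 35.2 CPM in that order. NEVLPcty and CS thus had overlapping intervals at the low end (11.9 to 19.4 and 11.5 to 19.2 CPM), and NEVLP2 and naive overlapped at the high end (24.4 to 32.5 and 29.8 to 41.3 CPM). A2m gave 1 count in NEVLPcty, 5 in NEVLP2, 1 in CS and 3 in naive. Its level in NEVLPcty was 3.25-fold lower than in NEVLP2, with a counting interval of 0.363 to 154-fold lower, so that no direction can be read. The upper limits were 1.26 CPM in NEVLPcty, 1.71 in NEVLP2, 1.32 in CS and 2.05 in naive.

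Hepcidin ran the other way. Hamp measured 2937 CPM in NEVLPcty (2887 to 2988), 1947 in NEVLP2 (1914 to 1980), 1372 in CS (1337 to 1408) and 1479 in naive (1443 to 1516). Both perfused libraries stood above CS and naive, and NEVLPcty above NEVLP2. The share of marker-rich barcodes with a Hamp UMI was likewise highest in NEVLPcty and next highest in NEVLP2 after thinning to 1000 UMIs, with 80.7% in NEVLPcty, 71.9% in NEVLP2, 52.5% in CS and 51.3% in naive, against 1.10, 3.75, 1.14 and 1.08% of T, NK and B cell barcodes. Before thinning the hepatocyte shares were 85.2% in NEVLPcty, 76.9% in NEVLP2, 55.8% in CS and 59.7% in naive, and the lymphoid shares 8.64, 13.3, 3.44 and 3.66%, at median depths of 5441, 6281, 4872 and 8510 UMIs. Over all rule barcodes, Hamp was 1313 CPM in NEVLPcty, 1197 in NEVLP2, 610 in CS and 1362 in naive, so both perfused libraries were above naive in the marker-rich barcodes and slightly below it in the larger set. The direction of NEVLPcty over NEVLP2 held in 15 of 17 other ways of processing and turned without the deepest 5% of rule barcodes (-0.06 on the log2 scale) and with median-of-ratios scaling (-0.03). Against naive the direction turned with the barcode set and with the scaling: NEVLPcty was higher under 11 of the 17 and lower under the other 6. The lowest log2 ratio, -0.79, came from median-of-ratios scaling and the highest, 1.29, from counting per check marker UMI.

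Lipocalin-2 showed the widest range. Lcn2 counted 54 UMIs in 1579 barcodes of NEVLPcty, 1308 in 3335 barcodes of NEVLP2, 11 in 2249 barcodes of CS and 1 in 1598 barcodes of naive. The levels were 12.2 CPM in NEVLPcty (9.14 to 15.9), 191 in NEVLP2 (181 to 202), 2.61 in CS (1.30 to 4.68) and 0.233 in naive (0.00591 to 1.30). NEVLP2 was high, NEVLPcty intermediate and CS and naive near 0, and none of the intervals of NEVLPcty, NEVLP2 and CS overlapped. The NEVLP2 UMIs were spread over 586 barcodes, of which 1 held 191 of the 1308 (14.6%), and 1 CS barcode held 6 of the 11 in CS. After thinning, 12.3% of NEVLP2 hepatocyte barcodes held an Lcn2 UMI, against 1.31% in NEVLPcty, 0.243% in CS and 0 of 1327 in naive, an upper limit of 0.278%. Lymphoid barcodes gave 1.19% in NEVLP2 and 0.219% in NEVLPcty after thinning and none in CS and naive, so the NEVLP2 hepatocyte share was above the lymphoid share. Whether the lymphoid UMIs came from free RNA, mixed barcodes or the cells themselves was not tested. Before thinning the shares were 17.6% in NEVLP2 hepatocytes against 5.32% in NEVLP2 lymphoid barcodes.

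Comparing the perfused livers with and without cytokines, 3 of the 8 members with at least 20 counts were more than 2-fold lower in NEVLPcty than in NEVLP2 and none higher. They were Lcn2 at 15.7-fold, Fga at 2.33-fold and Fgg at 2.09-fold (1.99 to 2.19). Over all genes the same limit was passed downward by 6.72% and upward by 6.29%. Fgb at 1.90-fold, Lbp at 1.84-fold and Orm1 at 1.79-fold lay just inside it, all lower, while Hamp was 1.51-fold higher (1.47 to 1.55). The median log2 ratio of the 8 members was -0.91 against 0.07 over 8950 genes and 0.13 over the check markers. In all rule barcodes 6 members passed the limit downward (Fga, Fgb, Fgg, Orm1, Lbp and Lcn2), with 5.92% of genes downward and 14.7% upward. The endothelial markers summed to 5928 CPM in NEVLPcty and 2650 in NEVLP2 there, and the part of these cells was not tested.

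Against naive, NEVLPcty hepatocytes were more than 2-fold lower for 5 of 8 members and higher for 1, with 6.11% of all genes past the limit downward and 36.7% upward. Fga was 4.01-fold lower (3.63 to 4.45), Fgb 2.49-fold, Lbp 2.30-fold, Fgg 2.21-fold and Orm1 2.21-fold. Hamp was 1.99-fold higher (1.93 to 2.05), just inside the limit, and Lcn2 was higher with a ratio of 52.2 that rests on 1 naive count and has an interval of 8.97 to 2098. The median member stood at a log2 ratio of -1.14 against 0.64 over 8277 genes. Other hepatocyte genes were also lower than in naive, with a median of -0.76 for the 10 check markers, which chose these barcodes, and -0.83 for 14 negative acute phase genes. Counted per check marker UMI over all rule barcodes, Fga alone stayed past 2-fold lower, at -1.62 on the log2 scale, with Fgb at -0.99, Orm1 at -0.83, Fgg at -0.80 and Lbp at -0.04. All rule barcodes gave 6 members lower (Hp in addition) and 1 higher, with 8.27% of genes downward and 58.2% upward.

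NEVLP2 differed from naive for 1 of 8 members past 2-fold, Lcn2, whose ratio of 820 has an interval of 147 to 32421 because naive held 1 count. Upward calls were made for 35.2% of all genes and downward calls for 6.56%. No other member moved past the limit: Fga was 1.72-fold lower, Fgb 1.31-fold lower, Hamp 1.32-fold higher, and Fgg and Hp were 1.06 and 1.04-fold lower. Fga alone was also past the limit, downward, over all rule barcodes, where 7.13% of genes were lower and 52.2% higher. The median log2 ratio of members was -0.19 in the marker-rich barcodes, against 0.55 over 8761 genes and -0.64 over the check markers.

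Perfusion without cytokines set against cold storage gave the same outcome, with Lcn2 alone past 2-fold among 8 members, at 73.2-fold higher in NEVLP2 (40.8 to 147), against 15.9% of genes upward and 11.4% downward. Lbp was 1.89-fold, Fga 1.62-fold and Hamp 1.42-fold higher in NEVLP2, Orm1 was 1.54-fold lower, Fgb was 1.06-fold lower, and Fgg and Hp were 1.09 and 1.08-fold higher. Over all rule barcodes Fgb was instead 1.30-fold higher in NEVLP2 (1.27 to 1.33), a direction that held in 9 of 17 other settings. All rule barcodes added Fga to the higher members, with 11.0% of genes upward and 33.0% downward. Cold storage against naive put 2 of 7 members past 2-fold lower, Fga at 2.79-fold (2.55 to 3.06) and Lbp at 2.35-fold (1.74 to 3.21), and none higher, with 3.43% of genes downward and 23.3% upward. In all rule barcodes 6 of 7 members were lower in CS than in naive, but Fgb, Fgg, Hp and Hamp were 1.24, 1.16, 1.12 and 1.08-fold lower in the marker-rich ones, and the share of all genes in the larger set was 5.61% downward and 63.6% upward. Lcn2 had 11 counts in CS and 1 in naive, and was not counted.

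**Figure D3:**
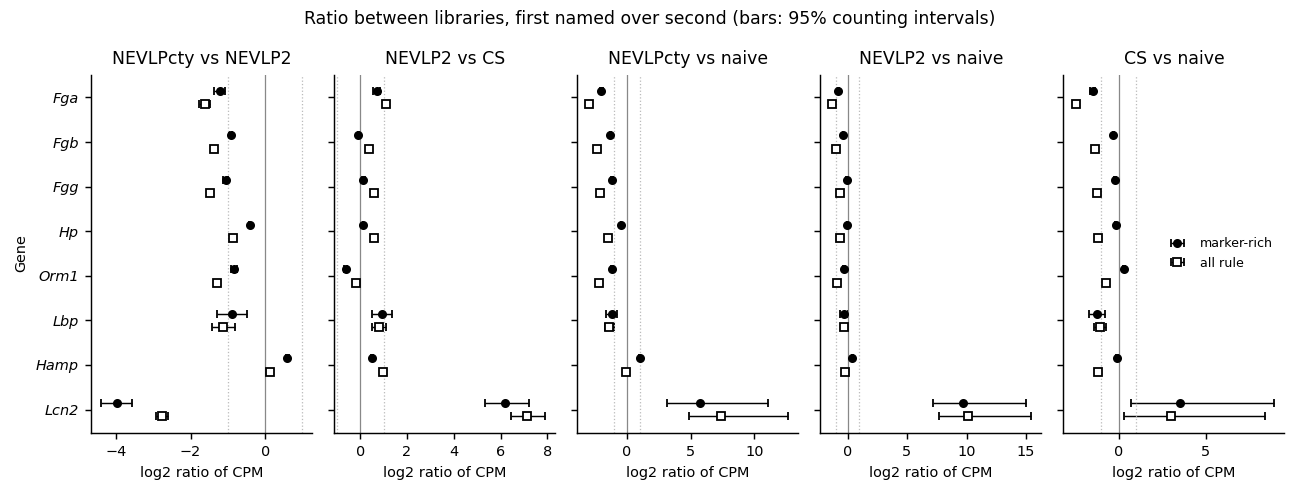
Log2 ratio of CPM between libraries, first named over second (x axis, scales differ), for 8 members (y axis; A2m left out for its 1 to 5 counts), with filled circles for marker-rich barcodes, open squares for all rule barcodes, bars for exact 95% counting intervals and dotted lines at 2-fold. Lcn2 lies farthest from the other members in every panel, and the squares lie left of the circles for the fibrinogen chains except in NEVLP2 vs CS.

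Hepatocytes of the portal side and the central side of the lobule differ in their genes, and marker-rich barcodes with at least 5 UMIs of 7 pericentral and 8 periportal genes were divided at equal steps of the periportal share of those UMIs. The pericentral, middle and periportal ranges held 81, 176 and 1162 barcodes in NEVLPcty, 216, 371 and 2087 in NEVLP2, 212, 346 and 1266 in CS and 86, 208 and 898 in naive. They are ranges of a score and not cell types, and in each library 28 to 71 barcodes lay near the lower limit and 110 to 231 near the upper one. Genes of the score themselves differed between libraries: Pck1 was 232 CPM in NEVLP2 and 1709 in CS, and Glul 373 in NEVLP2 and 107 in naive. A range may therefore not hold the same part of the lobule in each library. Orm1 was higher along the ranges in naive, with 236 CPM in the pericentral range, 519 in the middle and 1200 in the periportal range, and in NEVLP2 it was higher in the periportal range, with 421, 422 and 908 CPM. In NEVLPcty the same ranges held 312, 411 and 460 CPM, and in CS 917, 1165 and 1338 CPM. The range scored as pericentral thus had its highest Orm1 level in CS, with the limit on comparing ranges between libraries given above. Hamp was low in the pericentral range of NEVLPcty (1397, 3058 and 3003 CPM from pericentral to periportal), NEVLP2 (1137, 1896 and 2058 CPM) and CS (707, 1293 and 1524 CPM). In naive it was 1562, 1863 and 1404 CPM, with no such order. Lcn2 in NEVLP2 was 36.5 CPM in the pericentral range (21.3 to 58.5), 68.2 in the middle (51.1 to 89.2) and 228 in the periportal range (215 to 241). Fgb had no common order: its middle range was highest in NEVLPcty, NEVLP2 and CS, at 2051, 2643 and 3789 CPM, and its periportal range in naive, at 3544 CPM.

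**Figure D4:**
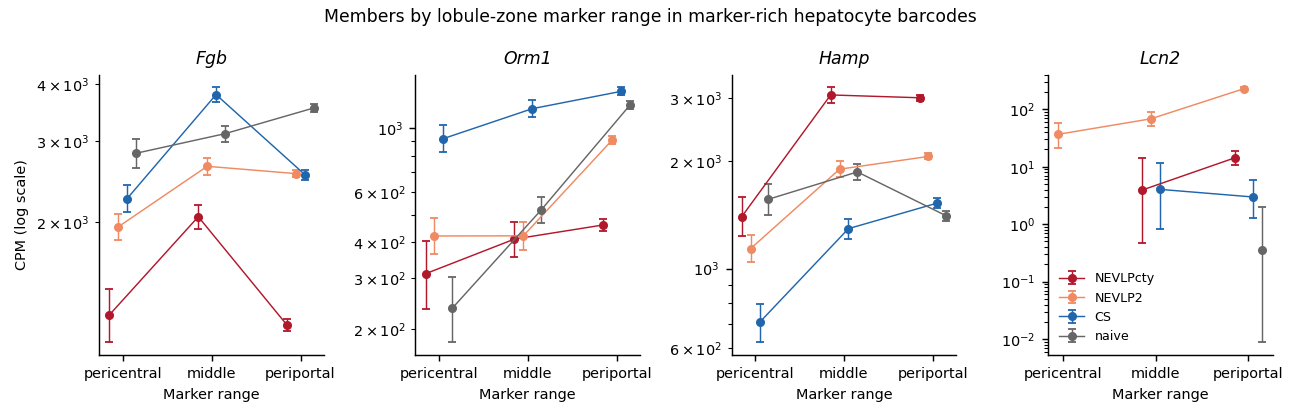
Level of Fgb, Orm1, Hamp and Lcn2 (y axis, CPM, log scale) in the pericentral, middle and periportal marker ranges (x axis) of marker-rich hepatocyte barcodes, 1 line per library, with exact 95% Poisson intervals; ranges with no count are not drawn. Lcn2 in NEVLP2 climbs to 228 CPM in the periportal range and Orm1 in naive to 1200 CPM.

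Within NEVLP2, hepatocyte barcodes with Lcn2 could be set against those without, after thinning each to 1000 UMIs. The 295 barcodes with Lcn2 averaged 1.27 UMIs of Orm1, 2.76 of Hamp, 2.58 of Fgb and 10.3 of Hp, against 0.611, 1.77, 2.04 and 9.26 in the 2108 without it. Neutrophil markers were at or near 0 beside Lcn2: the 295 barcodes held 1 UMI of S100a8, none of S100a9, Csf3r, Cxcr2 and Mmp8, and 2 of Il1r2. Leaving out every NEVLP2 marker-rich barcode with a neutrophil or cholangiocyte marker, which kept 3204 barcodes, the Lcn2 level was 161 CPM (151 to 171). Across thinned barcodes of a library, Fgb went with Hp at Pearson r of 0.45 in NEVLPcty, 0.31 in NEVLP2, 0.56 in CS and 0.49 in naive, and with Fgg at 0.31, 0.46, 0.55 and 0.43. Hamp went with Fgb at 0.07, 0.13, 0.12 and -0.03 in the same order. These are descriptions over 1298, 2403, 1648 and 1327 barcodes that share a library and a depth of 1000 UMIs, and weak values in sparse counts carry no finding.

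Barcodes outside the hepatocyte set were sorted by fixed markers into classes, here named with the suffix -like, to find other sources of each member. Free hepatocyte RNA can reach such barcodes, so each member was also counted per 1000 UMIs of the hepatocyte check markers in the same class. For Fgb this quotient was 51.8 in NEVLP2 hepatocytes, and 67.5 in endothelial-like, 59.2 in Kupffer-like, 55.3 in monocyte-like and 46.1 in T/NK-like barcodes of that library. For Hamp it was 40.4 in NEVLP2 hepatocytes and 38.4, 41.3, 35.0 and 30.7 in the same classes, and for Orm1 16.6 and 15.0, 15.3, 15.6 and 16.4. The quotients did not match in every library, since Fgb was 23.3 in hepatocytes and 34.1 in endothelial-like barcodes of NEVLPcty. Hepatocyte barcodes held 85.5% of all Hamp UMIs in NEVLPcty, 82.5% in NEVLP2, 86.6% in CS and 94.7% in naive. For Orm1 the shares were 81.9, 84.6, 86.3 and 94.5%, and for Fgb 76.2, 80.7, 79.3 and 91.9%.

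Hp had further sources. Monocyte-like barcodes carried 439 Hp UMIs per 1000 check marker UMIs in NEVLP2 and 647 in naive, against 198 and 140 in the hepatocytes of those libraries. Neutrophil-like barcodes carried 343 in NEVLP2 and 575 in naive. In CPM these classes were far below hepatocytes, at 243 in monocyte-like and 546 in neutrophil-like barcodes of NEVLP2, and 136 and 230 in naive. Lbp was also not confined to hepatocytes, which held 15.3% of its UMIs in NEVLPcty, 28.2% in NEVLP2, 6.43% in CS and 27.6% in naive. Endothelial-like barcodes held 63.3% of Lbp UMIs in NEVLPcty, 21.2% in NEVLP2 and 68.3% in CS. In naive, where 51 endothelial-like barcodes were present, monocyte-like barcodes held 50.9%, at 62.5 CPM. The level was highest in cholangiocyte-like barcodes where these were present, at 192 CPM in 8 barcodes of NEVLPcty, 332 CPM in 22 of NEVLP2 and 735 CPM in 5 of CS.

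Lcn2 of NEVLP2 was read in many classes, and the part of free RNA in these was not tested. Of its 10676 UMIs in that library, cholangiocyte-like barcodes held 18.3%, Kupffer-like 17.1%, endothelial-like 15.2%, neutrophil-like 15.0%, marker-rich hepatocytes 12.3% and monocyte-like 11.0%. The level was 5646 CPM in 22 cholangiocyte-like barcodes (5399 to 5902) and 2459 CPM in 166 neutrophil-like barcodes (2340 to 2582), against 191 in hepatocytes, 145 in monocyte-like, 137 in Kupffer-like and 102 in endothelial-like barcodes. Of the neutrophil-like barcodes of NEVLP2, 113 (68.1%) held an Lcn2 UMI. In naive none of 75 did, and the Lcn2 level there was 0 CPM with an upper limit of 13.9 CPM. In NEVLPcty and CS no Lcn2 UMI was read in 9 and 18 neutrophil-like barcodes, with upper limits of 156 and 87.9 CPM. The neutrophil-like barcodes of naive were rich in S100a9, at 49139 CPM against 7296 CPM in NEVLP2. Granule genes were divided: Ltf, Mpo and Np4 had no count in neutrophil-like barcodes of any library, whereas others were read. Camp had 94 counts in NEVLP2 and 29 in naive (145 and 110 CPM), and Mmp9 111 and 17 (171 and 64.2 CPM). Elane had 12 and 3 counts (18.5 and 11.3 CPM), Padi4 10 and 46 (15.4 and 174 CPM), and Ngp 1 and 0. NEVLPcty held 1081 Lcn2 UMIs in all, 45.8% of them in endothelial-like and 37.9% in 8 cholangiocyte-like barcodes at 3142 CPM. CS held 134 and naive 61.

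Over 32 profiles of class and library with at least 50 barcodes each, the genes most like a member were found by Pearson correlation of log2(CPM + 1) among 12500 genes. Alb led for Fgb (r = 0.994) and Fgg (0.990), Agt for Fga (0.971) and Akr1c12 for Orm1 (0.989). For Lbp the closest were Tbc1d2 (0.799), C3 (0.769) and Sqor (0.763), and for Lcn2 Tgm1 (0.802), Csf3 (0.798) and Sod2 (0.782). The profiles share libraries, and for the members made by hepatocytes the value mostly separates hepatocytes from other classes.

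Other positive acute phase genes did not follow 1 direction. Of 26 such genes with enough counts, 15 were more than 2-fold lower and 5 higher in NEVLPcty than in naive, where 6.11% of all genes were lower and 36.7% higher. In NEVLP2 10 of 27 were lower and 7 higher than in naive (all genes, 6.56% and 35.2%), and in CS 10 of 25 were lower and 2 higher (3.43% and 23.3%). The medians of their log2 ratios over naive were -1.12 in NEVLPcty, -0.61 in NEVLP2 and -0.67 in CS, against 0.64, 0.55 and 0.48 over all genes, -0.76, -0.64 and -0.20 over the hepatocyte check markers and -0.83, -0.69 and -0.26 over the negative acute phase genes. The contrast with all genes is thus shared by other hepatocyte genes, and in NEVLP2 the 3 hepatocyte lists lay close together. The check marker and negative lists are not independent, since Alb, Apoa1, Apoa2 and Apoh are in both. The check markers also chose these barcodes. Lrg1, a secreted leucine-rich glycoprotein, was 85.0 CPM in NEVLPcty, 44.9 in NEVLP2, 92.2 in CS and 5.37 in naive, and the receptor antagonist gene Il1rn 58.1, 102, 24.2 and 9.10 CPM. Metallothionein genes were high in both perfused libraries relative to CS: Mt2A was 425 CPM in NEVLPcty, 1294 in NEVLP2, 45.8 in CS and 200 in naive. On the lower side, plasminogen (Plg) was 148 CPM in NEVLPcty, 169 in NEVLP2, 212 in CS and 498 in naive, Itih4 152, 201, 164 and 503 CPM, and complement C3 224, 328, 182 and 739 CPM. Ceruloplasmin (Cp), a copper-carrying ferroxidase, was 61.5 CPM in NEVLPcty, 150 in NEVLP2, 34.4 in CS and 184 in naive. Between NEVLPcty and NEVLP2, 3 of 27 were lower (Steap4, Mt2A and Cp) and none higher, against 6.72% and 6.29% of all genes, and their median log2 ratio was -0.48, against 0.07 over all genes. Of 14 negative acute phase genes, 0 were past 2-fold in that pair, with a median of -0.08. In each perfused library 3 of the 14 were lower than in naive and none higher, so the medians of the positive and the negative list lay on the same side of 0.

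Genes of the signalling routes behind the acute phase, like all genes, were more often higher than lower in perfused hepatocytes than in naive ones. Of 22 receptor and signalling genes counted in NEVLP2 against naive, 17 were more than 2-fold higher and 1 lower, against 35.2% and 6.56% of all genes. In NEVLPcty 11 of 19 were higher and 2 lower (all genes, 36.7% and 6.11%), and in CS 11 of 20 were higher and 1 lower (23.3% and 3.43%). Their median log2 ratio over naive was 1.80 in NEVLP2 and 1.06 in CS, against 0.55 and 0.48 over all genes, and that of NEVLPcty lay between those of NEVLP2 and CS. Cebpd, the C/EBP factor that is itself induced in the acute phase, was 245 CPM in NEVLPcty, 657 in NEVLP2, 36.3 in CS and 3.50 in naive. Cebpb stood at 1589, 1793, 508 and 160 CPM in the same order. Nfkb1, which encodes an NF-κB subunit, was 108 CPM in NEVLPcty, 202 in NEVLP2, 12.6 in CS and 7.70 in naive, and the kinase gene Jak2 14.2, 68.6, 6.18 and 3.03 CPM. Osmr, the oncostatin M receptor, had 6 counts in NEVLPcty, 43 in NEVLP2, 1 in CS and 2 in naive. NEVLPcty was lower than NEVLP2 past 2-fold for 5 of 22 (Jak2, Osmr, Tnfrsf1b, Cebpd and Tgfbr1), against 6.72% of all genes, and higher for 1 (6.29% of all genes), Hnf4a, at 142 CPM in NEVLPcty against 45.1 in NEVLP2. Tgfbr1 had 7 counts in NEVLPcty and 22 in NEVLP2, 2.04-fold lower with an interval of 0.842 to 5.65, so no direction can be read for it. Of 13 feedback genes in the same pair, with the same shares over all genes, 3 were lower and 1 higher: Socs1, 1.35 CPM in NEVLPcty and 13.8 in NEVLP2, Socs3, 4.96 and 14.6 CPM, and Tnfaip3, 9.24 and 20.6 CPM, were the lower ones, and the phosphatase gene Dusp1, 146 and 61.6 CPM, the higher one.

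Ligands for these receptors were read mainly outside hepatocytes. Il6 was 113 CPM in Kupffer-like barcodes of NEVLP2, against 1.91 in NEVLPcty, 1.42 in CS and 34.8 in naive. Il1b in Kupffer-like barcodes was 1961 CPM in NEVLPcty, 3625 in NEVLP2, 412 in CS and 634 in naive. In monocyte-like barcodes Osm was 331 CPM in NEVLPcty, 434 in NEVLP2, 59.9 in CS and 85.1 in naive. The marker-rich hepatocyte barcodes held 29.5 CPM of Il1b in NEVLPcty, 122 in NEVLP2, 9.03 in CS and 15 counts in naive, and the part of immune cell RNA in these was not tested.

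Genes of the hepcidin pathway were divided. In NEVLPcty 4 of 20 were more than 2-fold higher than in NEVLP2 and none lower, against 6.29% and 6.72% of all genes. They were Bmp2 (40.1 CPM in NEVLPcty and 16.7 in NEVLP2), the BMP co-receptor gene Hjv, Id2 and Smad7. Endothelial markers stood at 619 CPM in these barcodes of NEVLPcty and 272 in NEVLP2, and the NEVLPcty perfusate held TGF-β. The part of either in these differences was not tested. Hjv had 61 counts in NEVLPcty, 41 in NEVLP2, 80 in CS and 71 in naive, a ratio of NEVLPcty over NEVLP2 of 2.29 in CPM. Id2 was 119 CPM in NEVLPcty, 53.4 in NEVLP2, 75.1 in CS and 20.5 in naive, and Smad7 22.3, 10.5, 23.0 and 3.50 CPM. Id1, a BMP target, was 23.0 CPM in NEVLPcty, 13.8 in NEVLP2, 86.0 in CS and 1.63 in naive, so its order across libraries was not that of Hamp. Tmprss6, a protease that cleaves hemojuvelin, had 84 counts in NEVLPcty, 171 in NEVLP2, 67 in CS and 292 in naive, the highest level being that of naive at 68.1 CPM. Against naive, 10 of 19 were higher and 3 lower in NEVLPcty, 9 of 20 higher and 3 lower in NEVLP2, and 6 of 15 higher and 3 lower in CS. Over all genes 36.7% were higher and 6.11% lower in NEVLPcty, 35.2% and 6.56% in NEVLP2, and 23.3% and 3.43% in CS. The median log2 ratios of the list were 1.27 in NEVLPcty, 0.89 in NEVLP2 and 0.74 in CS, against 0.64, 0.55 and 0.48 over all genes, which were also above 0. The ligand gene Bmp2 was read at 403 CPM in endothelial-like barcodes of NEVLPcty, 346 in NEVLP2, 3145 in CS and 3246 in naive, the last from 51 barcodes.

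Among the partners of these proteins, Hmox1, the haem-degrading enzyme that acts downstream of haptoglobin-haemoglobin uptake, stood in hepatocytes at 1715 CPM in NEVLPcty, 1767 in NEVLP2, 27.8 in CS and 30 counts among 4286831 UMIs in naive. Cd163, the scavenger receptor for haptoglobin-haemoglobin, was 310 CPM in Kupffer-like barcodes of NEVLPcty, 519 in NEVLP2, 539 in CS and 326 in naive. Lrp1, the receptor that clears alpha-2-macroglobulin complexes, was 7.44 CPM in hepatocytes of NEVLPcty, 13.2 in NEVLP2, 14.5 in CS and 32.4 in naive. Of the partner genes counted, 0 of 10 were higher and 2 lower in NEVLPcty than in NEVLP2 (all genes, 6.29% and 6.72%), and 2 of 9 were higher and 4 lower than in naive (36.7% and 6.11%).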

How the data were processed

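The data are whole-number UMI counts per gene and barcode for 4 libraries, deposited by the authors as filtered feature-barcode matrices, per the labels' protocols. Cell Ranger 2.1.1 is named in the submitters' processing notes and 6.0.0 in the file headers, and no genome build was given in either. Features that share a symbol were summed.

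Counts were summed over barcodes and divided by the sum of all UMIs, as CPM. Ratios cover genes with at least 20 counts in both libraries together, 0 counts were set to 3, and a difference is counted past 2-fold. Intervals are exact Poisson, binomial or conditional binomial 95% limits and cover counting error only. Python 3.11.15, numpy 2.4.6, scipy 1.17.1 and pandas 2.3.3 were used, and the ratio calculation was tested on simulated data.

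The main set holds all rule barcodes. The subset with at least 2% check markers, 1 of 11 planned other settings, leads the text because the larger set holds endothelial-like barcodes. A further 6 settings were chosen after seeing the data. Other classes need at least 3 distinct markers of a fixed list and take the list with the highest share detected. No doublet caller was run, and leaving out the deepest 5% of barcodes is an alternative. Depth per marker-rich barcode (medians of 1824 UMIs in NEVLPcty, 1454 in NEVLP2, 1432 in CS and 1870.5 in naive) limits sparse genes such as A2m. Members, lists and tests were chosen with earlier results of these data known. Genes named from a list are up to 6 per comparison with the largest ratios past 2-fold in the marker-rich sums. Il6, Il1b and Osm levels in other classes, and those of Cd163 and Bmp2, were chosen after their values were seen. Promoters come from RefSeq (GRCr8). Values of some single genes that the naming rule takes are not reported here.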

Additional observations from a re-analysis of the deposited data

How the results depend on the processing

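Over 17 alternatives, 6 of them chosen after seeing the data, to the sums over all rule barcodes, the log2 ratios of Lcn2 in the 4 comparisons in which it was counted kept their direction and stayed past 2-fold, at -4.58 to -2.31 for NEVLPcty over NEVLP2 and 5.49 to 8.07 for NEVLP2 over CS. Fga in NEVLPcty over naive stayed past 2-fold as well, at -3.70 to -1.62, and in CS over naive at -3.31 to -1.12. Counts of members moved with the choice of barcodes, and the cause was not tested beyond the marker values given above.

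For NEVLPcty below NEVLP2 the count was 6, and it became 3 with check markers of at least 2% or 1% or with the mean of barcode CPM, 2 with the 2% limit plus quality limits, thinning or 1 deep NEVLP2 barcode left out, and 1 without barcodes of other cells. The count also changed in settings not named, with Lbp past 2-fold in 7 of the 17, Orm1 in 9 and Fgb in 10. For NEVLP2 above CS it was 2, and 1 with all 4 rule genes, the mean of barcode CPM, thinning, the deepest 5% left out, check markers of at least 1% or 2% (the 2% limit also with quality limits, with thinning or without the deep barcode) or per check marker UMI, and 4 with median-of-ratios scaling. For NEVLPcty above naive it was 1, and 2 (Hamp and Lcn2) without barcodes of other cells, at 4% check markers or per check marker UMI. For NEVLPcty below naive it was 6, and 5 with check markers of at least 2%, 3 without barcodes of other cells and 1 per check marker UMI. The count also changed in settings not named, since Hp stayed past 2-fold in 7 of the 17. For NEVLP2 below naive it was 1, and 3 under quality limits or without mitochondrial genes, 5 with median-of-ratios scaling, and 0 with all 4 rule genes, without barcodes of other cells, with the mean of barcode CPM, at every check marker limit and per check marker UMI. For CS below naive it was 6, and 3 without the deepest 5%, 2 with all 4 rule genes, without barcodes of other cells, with the mean of barcode CPM, with thinning or at every check marker limit, and 1 per check marker UMI. For CS above naive it was 0, and 1 (Lcn2) with no minimum count.

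In CS over naive, called values turned positive for Hamp without barcodes of other cells (0.00747), at 4% check markers (0.10) and per check marker UMI (0.18), and per check marker UMI also for Fgb (0.00344), Fgg (0.12), Hp (0.15) and Lbp (0.28). No paired analysis was possible because each group has 1 library. Depth limits A2m, at 1 to 5 counts per library, and Lcn2 in naive, at 1 count.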

Other observations

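Barcodes with at least 2% hepatocyte check markers that lay outside the hepatocyte rule numbered 48 in NEVLPcty, 226 in NEVLP2, 95 in CS and 63 in naive. In them Hamp was 2548 CPM in NEVLPcty, 1528 in NEVLP2, 664 in CS and 766 in naive, the same order of libraries as in the marker-rich barcodes inside the rule. Lcn2 was 219 CPM in NEVLP2 and had no count in NEVLPcty, CS and naive, with upper limits of 29.0, 22.7 and 14.7 CPM. In CS, 6 basophil- or mast-like barcodes held 209 Hp UMIs, which is 11020 CPM.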
